A study of Mus musculus with 6 samples.

Results

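Class IIa histone deacetylases and Mef2 factors form a switch on muscle gene expression. The Mef2 proteins bind DNA and activate contractile, metabolic and early-response genes, and the class IIa deacetylases Hdac4, Hdac5, Hdac7 and Hdac9 bind Mef2 and repress those genes. Calcium-dependent and stress kinases phosphorylate the deacetylases, which then bind 14-3-3 proteins and leave the nucleus. Pofut1 is the enzyme that attaches O-fucose to the EGF-like repeats of Notch receptors and other proteins, and active Notch is known to restrain Mef2c in cultured muscle cells.

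The members were Hdac4, Hdac5, Hdac7, Hdac9, Mef2a, Mef2c and Mef2d, taken as every probe set that the platform annotation pairs with exactly 1 of these symbols. They had 22 of the 45101 probe sets on the array and made up 7 of the 18194 genes measured. The set was put together with the knockout and control values already known, so the differences below are descriptions without a test. Quadriceps muscle of C57/Bl6 mice aged 2 months was measured on 1 array per sample, in 3 Pofut1 knockout samples and 3 control samples. The knockout samples carried a skeletal α-actin cre transgene and floxed Pofut1 alleles on both chromosomes, and the control samples carried the same cre with wild-type Pofut1. This promoter drives cre in skeletal muscle fibres, so the vessel, immune and nerve cells of the tissue are not its target. In such bulk tissue, fewer cells of a type and less RNA per cell cannot be told apart.

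Values are probe set intensities as deposited, on a linear scale, and differences are of log2 intensity, knockout minus control, with the standard error (SE) of limma's fit over all probe sets. An intensity of 66.2, the 95th percentile of 37 genes restricted to other tissues, served as the background level. The array labelled control replicate 3 stood apart: its log2 values correlated with those of the other arrays at 0.940 to 0.945, while the other 5 correlated with each other at 0.980 to 0.991. Its Gapdh 3' over 5' ratio, a measure of RNA integrity and cDNA length, was 10.5, against 3.70 in knockout replicate 2 and 1.73 to 1.97 elsewhere. Pofut1 itself, at its brightest probe set, read 220.1, 231 and 194 in the knockout arrays, against 301, 379.8 and 90.6 in the control arrays. The value in the array labelled control replicate 3 was the lowest of the 6 and ran against its label, and the difference was -0.02 ± 0.51 (SE) over the 6 arrays and -0.66 ± 0.17 without that array. The sources used here do not say whether that probe set falls within the floxed exons. Separate animals are not stated in the labels, so the errors measure the spread between these samples. Fibre markers fitted the labelled tissue, with 10 of 10 fast-fibre genes and 7 of 7 slow-fibre genes above background.

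At its brightest probe set Hdac9 was 2.47-fold higher in the knockout, the largest difference of the 7 genes. Mef2d was 1.33-fold higher at its brightest probe set and not at its others. Hdac4 was lower in the knockout by an amount that depended on which control arrays entered, and Hdac5, Hdac7, Mef2a and Mef2c were within 1.13-fold at their brightest probe sets. At those 7 probe sets 4 genes had higher and 3 lower values in the knockout, with a median difference of 0.17, while over all genes 46.3% had higher values and the median was -0.01. Over all 22 member probe sets 14 had higher and 8 lower values, with a median of 0.09, against 45.6% higher over the whole array. Without the array labelled control replicate 3 the split was again 4 and 3 for the genes (48.0% of all genes higher). For the 22 probe sets it was then 11 and 11, with a median of 0.00 (50.2% of all probe sets higher). In limma, 0 of the 7 genes and 0 of the 22 probe sets passed an adjusted p of 0.05 (Benjamini-Hochberg), and 0 genes (0%) and 0 probe sets (0%) passed in the whole table. At an unadjusted p under 0.05 the fit gave 469 of 18194 genes (2.58%), and unmoderated t statistics likewise called 0 genes after adjustment and gave 615 before it. The lowest adjusted p of any gene was 0.971.

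**Figure D1:**
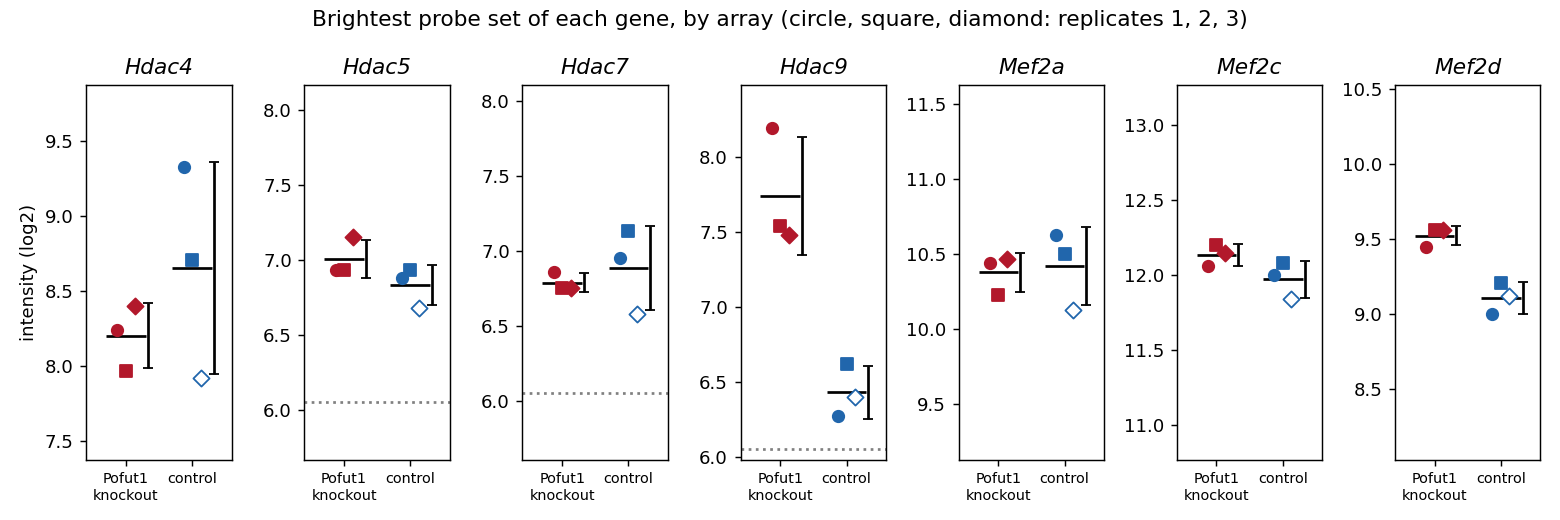
Log2 intensity of the brightest probe set of each gene (vertical axis) in the 3 knockout arrays (red) and the 3 control arrays (blue). The horizontal bar is the group mean, the error bar the SD, the dotted line the background level, and the open diamond control replicate 3. Each panel spans the same range on its own scale. The knockout and control points are apart for Hdac9 and Mef2d and overlap for the other 5 genes.

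Hdac9, a class IIa deacetylase of muscle whose gene is itself a known Mef2 target in the mouse, had intensities of 293, 186 and 178 at probe set 1434572_at in the knockout arrays. The control arrays read 77.2, 98.6 and 84.7. All 3 knockout values lay above all 3 control values, and knockout replicate 1 stood above the other knockout arrays. The log2 means were 7.74 ± 0.40 in the knockout and 6.43 ± 0.18 in the control (SD, n = 3 each), a difference of 1.30 ± 0.26 (SE). Control values were close to the background level of 66.2, where summaries of this kind are compressed, so the size of the fold change is uncertain. Without the array labelled control replicate 3 the difference was 1.29 ± 0.26. The other Hdac9 probe set, 1421306_a_at, read 46.4, 47.9 and 46.1 in the knockout, against 43.0, 44.2 and 47.3 in the control. It was below background in every array and therefore adds nothing on the gene. The higher intensity thus rested on 1 probe set, and which Hdac9 splice forms it detects was not examined.

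Hdac9 has 2 start-site windows in the RefSeq promoter table (build GRCm38.p6, 250 bases before to 50 after the start site, minus strand). They are shown because Hdac9 differed most between the groups, with the E-box CAGCTG, a motif that MyoD-family factors can bind, in capitals.
Hdac9, chr12:34917046-34917345: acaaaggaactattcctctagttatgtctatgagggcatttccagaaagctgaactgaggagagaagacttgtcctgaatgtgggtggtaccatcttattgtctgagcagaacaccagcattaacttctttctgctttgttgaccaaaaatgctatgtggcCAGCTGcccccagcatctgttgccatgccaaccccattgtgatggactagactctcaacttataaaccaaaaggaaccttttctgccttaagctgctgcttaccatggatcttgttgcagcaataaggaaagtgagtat
Hdac9, chr12:34528840-34529139: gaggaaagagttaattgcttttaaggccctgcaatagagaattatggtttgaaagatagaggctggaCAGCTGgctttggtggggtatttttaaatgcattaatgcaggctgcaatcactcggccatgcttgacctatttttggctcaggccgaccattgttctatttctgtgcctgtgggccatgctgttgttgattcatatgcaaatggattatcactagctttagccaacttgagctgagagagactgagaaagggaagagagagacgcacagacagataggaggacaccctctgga
The E-box began 89 bases before the start site in the first window and 183 in the second. On both strands, it was found in 16.3% of all 32851 windows of the table and in 3 of the 13 windows of the members. The MEF2 consensus had no match in either Hdac9 window, which says only that these letters are not in these 300 bases.

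Hdac4, the deacetylase that rises with loss of innervation and represses Dach2, read 303, 251 and 339 at its brightest probe set, 1454693_at, in the knockout arrays. The control arrays read 642, 418 and 243. Control replicates 1 and 2 lay above all knockout arrays, and the array labelled control replicate 3 lay below all of them. The log2 means were 8.21 ± 0.22 in the knockout and 8.65 ± 0.70 in the control (SD, n = 3 each), a difference of -0.45 ± 0.36 (SE). Without the array labelled control replicate 3 the difference was -0.81 ± 0.23, or 1.75-fold lower in the knockout, and the groups then did not overlap. Without control replicate 1 it was -0.11 ± 0.31 in the fit over genes. The second probe set of Hdac4, 1436758_at, read 240.1, 233 and 269 in the knockout, against 317, 241 and 262 in the control. There only control replicate 1 stood above the rest, and the difference was -0.14 ± 0.20 (SE), or -0.16 ± 0.18 without control replicate 3. The third had a difference of -0.08 ± 0.20 at intensities of 60.5 to 86.3, near background. All 3 Hdac4 probe sets had lower mean values in the knockout, and over the 6 arrays the groups overlapped at each.

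Hdac5, which restrains hypertrophic and oxidative programmes in striated muscle, had 1 probe set, at 122, 122 and 142 in the knockout arrays. The control arrays read 118, 122 and 102. Knockout replicate 3 was highest and the array labelled control replicate 3 lowest, and the remaining 4 arrays were nearly level. The difference was 0.18 ± 0.19 (SE), and 0.10 ± 0.16 without control replicate 3. Hdac7, best known from endothelium and developing T cells, read 116, 107 and 107 at its brighter probe set in the knockout arrays, against 124, 139.6 and 95.8 in the control arrays. The knockout values lay inside the control range, with a difference of -0.10 ± 0.21. Without the array labelled control replicate 3 it was -0.26 ± 0.15, and the groups then did not overlap, while without control replicate 2 it was 0.02. Its second probe set, at 49.1 to 60.5, was below background in every array. Endothelial markers, which share a cell type with Hdac7, had higher values in the knockout for 7 of 10 genes (median 0.20). Their summed intensity was 2761 to 2889 in the knockout and 2358 to 2614 in the control, and none of the 10 was below background in all arrays. Their part in the Hdac7 values was not tested.

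**Figure D2:**
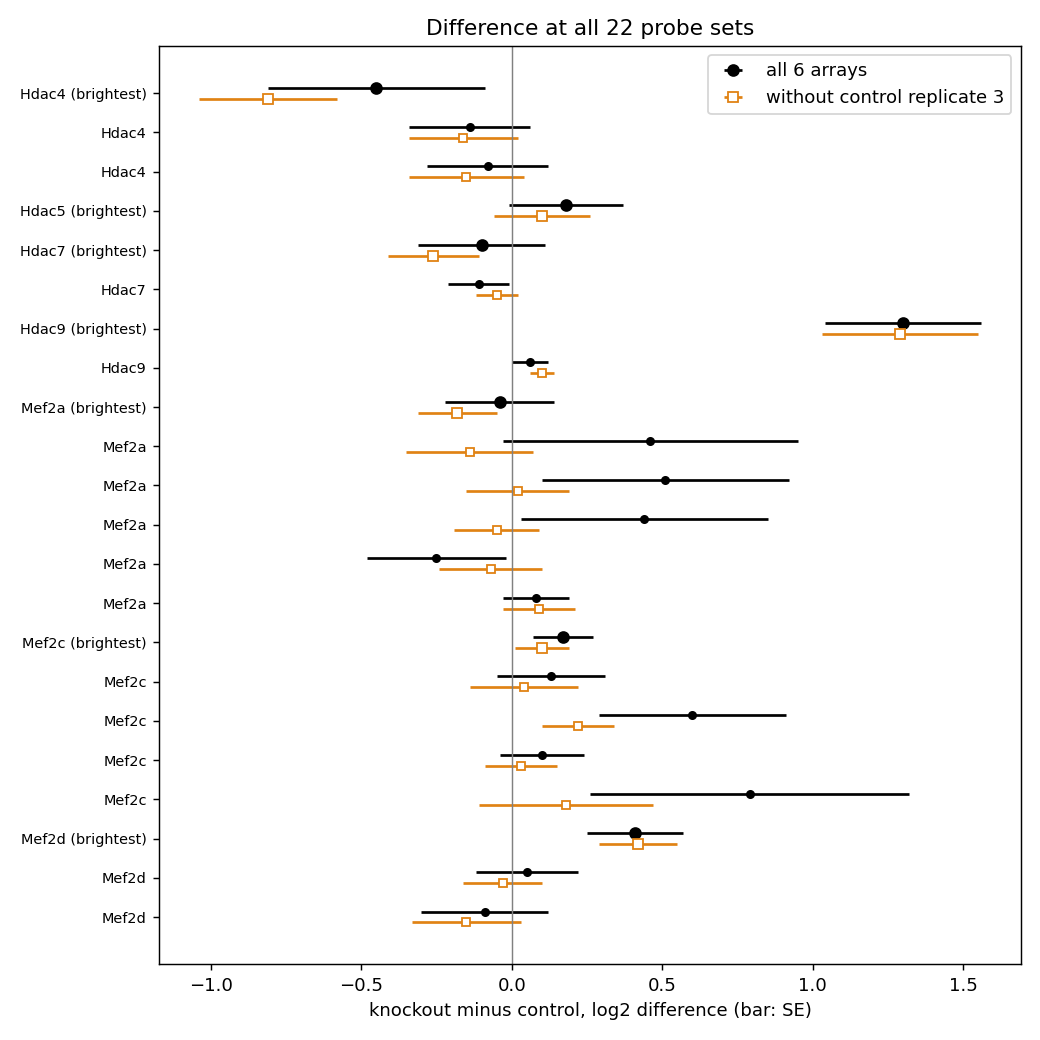
Knockout minus control difference of log2 intensity (horizontal axis) at each of the 22 probe sets, with its SE as the bar. Black circles use all 6 arrays and open orange squares leave out control replicate 3, and larger symbols mark the brightest probe set of a gene. Hdac9 and Mef2d keep their differences at 1 probe set each, while those of 3 Mef2a and 2 Mef2c probe sets move toward 0 and that of Hdac4 moves away from it.

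Mef2d, which with Mef2a and Mef2c is 1 of the main Mef2 factors of adult fibres, read 699.7, 753 and 755 at probe set 1434487_at in the knockout arrays. The control arrays read 512, 593 and 558. All 3 knockout values lay above all 3 control values, with little spread inside either group. The log2 means were 9.52 ± 0.06 in the knockout and 9.11 ± 0.11 in the control (SD, n = 3 each), a difference of 0.41 ± 0.16 (SE). It was 0.42 ± 0.13 without the array labelled control replicate 3. The other Mef2d probe sets did not show it. Probe set 1437300_at read 448, 491 and 450.3 in the knockout, against 475, 471 and 402 in the control, and 1421388_at read 126, 141 and 118, against 159.7, 126 and 126. Their differences were 0.05 ± 0.17 and -0.09 ± 0.21. The 3 probe sets of Mef2d thus disagreed, and the mean over them gave 0.12 ± 0.12.

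Mef2c, needed for sarcomere integrity in fibres and also expressed in endothelium and immune cells, had 5 probe sets, all above background in all arrays. The brightest, 1424852_at, read 4276, 4709 and 4552 in the knockout arrays, against 4088, 4336 and 3659.8 in the control arrays. The groups overlapped slightly, with knockout replicate 1 below control replicate 2, and the difference was 0.17 ± 0.10 (SE). Probe set 1451506_at read 2172, 1972 and 2380.5 in the knockout, against 1814, 1913 and 845 in the control. These groups did not overlap, yet the size of the difference came mainly from the array labelled control replicate 3. It was 0.60 ± 0.31 over all arrays and 0.22 ± 0.12 without that one. At probe set 1421028_a_at the knockout read 291, 235 and 465, against 275, 284 and 79.0 in the control, and the difference of 0.79 ± 0.53 became 0.18 ± 0.29 without that array. The remaining probe sets of Mef2c had differences of 0.13 ± 0.18 and 0.10 ± 0.14. All 5 had higher values in the knockout, with and without that array, and without it none exceeded 0.22.

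Mef2a, the third Mef2 factor of fibres, read 1392, 1197 and 1418 at its brightest probe set, 1427185_at, in the knockout arrays. The control arrays read 1582, 1446 and 1120.1. Control replicates 1 and 2 lay above all knockout arrays and the array labelled control replicate 3 below them, as for Hdac4. The difference was -0.04 ± 0.18 (SE), and -0.18 ± 0.13 without that array. It was 0.07 without control replicate 1 and 0.04 without knockout replicate 2. Probe set 1452347_at read 442, 292 and 349.5 in the knockout, against 423, 362 and 114 in the control, and 1427186_a_at read 411, 323 and 322, against 362, 327 and 125. Probe set 1421252_a_at read 289.7, 272 and 256 in the knockout, against 292, 271 and 102 in the control. In these 3 probe sets the array labelled control replicate 3 alone stood low, departing from the mean of the other control arrays by -1.77 to -1.46 log2 units. Their differences of 0.46 ± 0.49, 0.51 ± 0.41 and 0.44 ± 0.41 became -0.14 ± 0.21, 0.02 ± 0.17 and -0.05 ± 0.14 without it. Of the remaining probe sets, 1 lay around background, at 49.5 to 92.7, and 1 below it, at 42.0 to 56.3.

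The RefSeq promoter windows of Mef2a and Hdac5 are shown because they were the members' windows with a match to the MEF2 consensus, which is in capitals (GRCm38.p6, minus strand for both).
Mef2a, chr7:67372809-67373108: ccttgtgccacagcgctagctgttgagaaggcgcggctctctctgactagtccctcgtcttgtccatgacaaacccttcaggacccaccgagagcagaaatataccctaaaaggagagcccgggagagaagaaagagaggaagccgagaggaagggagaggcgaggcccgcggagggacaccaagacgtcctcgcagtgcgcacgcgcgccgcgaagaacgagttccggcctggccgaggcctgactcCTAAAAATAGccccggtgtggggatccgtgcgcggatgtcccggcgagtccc
Hdac5, chr11:102230123-102230422: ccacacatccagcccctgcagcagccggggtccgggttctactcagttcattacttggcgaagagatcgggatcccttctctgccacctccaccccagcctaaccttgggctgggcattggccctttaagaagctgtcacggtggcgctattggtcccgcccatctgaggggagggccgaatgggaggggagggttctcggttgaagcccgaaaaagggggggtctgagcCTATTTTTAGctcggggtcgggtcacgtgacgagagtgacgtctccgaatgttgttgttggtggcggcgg
The match began 2 bases before the start site in Mef2a and 20 bases before it in Hdac5. On both strands the consensus matched 3.19% of the 32851 windows of the table and 2 of the members' 13. Of the other motifs searched, the RBPJ core GTGGGAA matched 0 of 13 windows (6.38% of all), TGACG matched 2 (20.8%) and the CArG box 0 (1.63%). The members with a MEF2 match in the window, Mef2a and Hdac5, had differences of -0.04 and 0.18 at their brightest probe sets, and the windows of Hdac9 and Mef2d had no match.

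Probe sets of 1 gene gave different pictures of the array labelled control replicate 3. It fell short of the mean of control replicates 1 and 2 by over 1 log2 unit at 6 of the 22 probe sets, namely 3 of Mef2a, 2 of Mef2c and 1 of Hdac4. Among all 20463 probe sets with a mean above background, a filter not put on the 22, that share was 17.5%. All 6 were among the 17 member probe sets above background in all arrays. Of those 17 the array labelled control replicate 3 was the lowest of the 6 arrays at 13. The same count was not made over all probe sets, so it cannot be called particular to the members. The brightest probe sets of Mef2c and Mef2a departed less in it, by -0.20 and -0.43 from the other control arrays, and those of Hdac9 and Mef2d by -0.04 and 0.02. Knockout replicate 2, the other array with a high Gapdh ratio, departed from the other knockout arrays by -0.65 to 0.21 at the probe sets above background in all arrays. Whether the position of a probe set along its transcript set these differences was not tested.

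**Figure D3:**
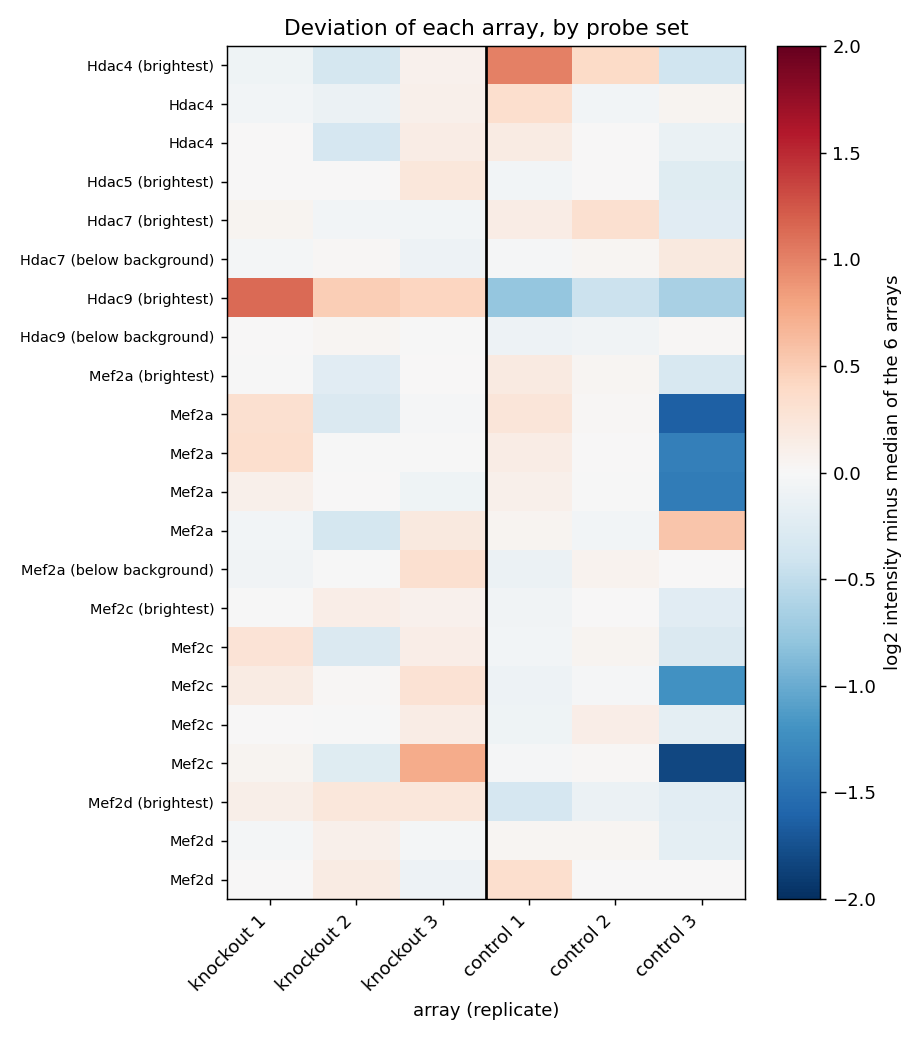
Log2 intensity of each array (columns, knockout left of the line and control right of it) minus the median of the 6 arrays, for the 22 probe sets (rows). Red is above and blue below that median. Control replicate 3 is blue at 3 Mef2a and 2 Mef2c probe sets, and the brightest Hdac9 probe set is red in all knockout and blue in all control arrays.

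The knockout and control values did not overlap at 2 of the 7 brightest probe sets, Hdac9 and Mef2d, against 1640 of 18194 genes (9.01%). Over all member probe sets it was 3 of 22, with Mef2c probe set 1451506_at as the third, against 7.66% of all probe sets. All 3 had higher values in the knockout, a direction seen without overlap at 2.93% of all probe sets. Without the array labelled control replicate 3 the groups did not overlap for 5 of the 7 genes, against 24.5% of all genes, as Hdac4, Hdac7 and Mef2a then had lower values throughout the knockout. Of the 22 member probe sets, 4 were then higher and 3 lower without overlap, and 15 overlapped. Over all probe sets 22.5% did not overlap without that array. Since the set was chosen on this contrast, these counts are no evidence about it.

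Of the other deacetylases, the class I, IIb and IV genes and Mef2b, 5 had higher and 3 lower values in the knockout, with a median difference of 0.04. The genes around the members were compared with limma over all 18194 genes, and 0 of them passed in either direction, every adjusted p being 0.971 or higher. Hdac1, a class I enzyme of general corepressor complexes, read 376, 372 and 348 in the knockout, against 325, 334 and 214 in the control (difference 0.36 ± 0.22, or 0.15 ± 0.12 without control replicate 3). Hdac11, the class IV enzyme, read 82.9, 126 and 94.9, against 80.0, 82.3 and 65.9 (0.40 ± 0.22). For both genes the groups did not overlap, and control replicate 3 was the lowest array. Hdac3, the class I enzyme that supplies catalytic activity to class IIa complexes, read 252, 240.4 and 253, against 245, 232 and 235, a difference of 0.07 ± 0.17. It was named for that role after its values were seen. Among the 7 sirtuins, NAD-dependent deacylases, 4 had higher values, or 1 without control replicate 3. Sirt5, the mitochondrial desuccinylase, had the largest difference at 0.69 ± 0.29, or 0.40 ± 0.15 without control replicate 3. Sirt1, the nuclear deacetylase of the family, had -0.26 ± 0.25, or -0.08 ± 0.19 without that array.

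Upstream, 9 of 17 genes for kinases that phosphorylate class IIa deacetylases had higher and 8 lower values, with a median of 0.02. Prkaa2, the muscle catalytic subunit of AMP-activated kinase, read 2432, 2387 and 2528 in the knockout, against 2153, 2327 and 1724 in the control (0.26 ± 0.14, or 0.13 ± 0.09 without control replicate 3). Its groups did not overlap, and control replicate 3 was the lowest array. Camk2d, a calcium and calmodulin kinase, had 0.27 ± 0.20, or 0.12 ± 0.15 without that array, with groups that overlapped over the 6 arrays. Of 9 genes for phosphatases and protein kinase A 6 had higher values, with a median of 0.05. Rcan1, an inhibitor of calcineurin that calcineurin signalling induces, read 1829, 504 and 1333 in the knockout, against 2355, 3433 and 1484 in the control. Knockout replicate 2 stood low and knockout replicate 1 lay inside the control range, so the groups overlapped, with a difference of -1.10 ± 0.51. Without control replicate 3 it was -1.41 ± 0.53, and the groups then did not overlap. Ppp3cb, a calcineurin catalytic subunit, had 0.19 ± 0.09. Without the array labelled control replicate 3 the list turned to 1 higher and 8 lower, with a median of -0.24.

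Among the partners of the deacetylases, 7 of 8 genes for 14-3-3 proteins and nuclear export had higher values in the knockout (median 0.14), against 5 of 8 without control replicate 3 (median 0.11). Ywhag, a 14-3-3 protein, read 3491, 3659 and 3189.8 in the knockout, against 2493, 2792 and 3281 in the control (0.28 ± 0.13). Control replicate 3 lay above knockout replicate 3, so the groups overlapped, and without control replicate 3 the difference was 0.38 ± 0.11. Ywhab, of the same family, had 0.29 ± 0.17, or 0.42 ± 0.15 without that array. Of the 10 measured corepressor genes 8 had higher values (median 0.10), against 5 without control replicate 3 (median -0.01). Gps2, a subunit of the NCoR and SMRT complex, read 349, 402 and 464 in the knockout, against 548, 559.8 and 471 in the control (-0.38 ± 0.18), with no overlap. Tbl1x, another subunit of it, had 0.47 ± 0.26, with overlap. Of 12 genes for coactivators and activating kinases of Mef2 8 had higher values (median 0.13), against 4 without control replicate 3 (median -0.06). Maml1, a Notch coactivator that can also coactivate Mef2c, read 305, 431 and 351, against 294, 296 and 212, a difference of 0.44 ± 0.23 and 0.28 ± 0.18 without control replicate 3. Ncoa2, a nuclear receptor coactivator that Mef2c also uses, had 0.56 ± 0.26 over all arrays and 0.27 ± 0.11 without that one.

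Downstream, the Mef2 target genes were evenly split, with 10 higher and 10 lower of 20 measured and a median of 0.01, or 7 and 13 with -0.05 without control replicate 3. Nr4a1, a nuclear receptor of the early-response class, read 711, 546 and 834 in the knockout, against 198, 375 and 272 in the control. All knockout values lay above all control values, with a difference of 1.33 ± 0.28, also 1.33 without control replicate 3. Klf2, a transcription factor of the Krüppel family, read 165, 142 and 150.0, against 79.8, 113 and 67.4, also without overlap, with a difference of 0.84 ± 0.25. Ckm, muscle creatine kinase, had 0.00 ± 0.17, or -0.16 ± 0.13 without control replicate 3. Slc2a4, the insulin-responsive glucose transporter, had 0.13 ± 0.22, or -0.07 ± 0.16 without it. Myoz2, a Z-disc protein, had 0.35 ± 0.31, or 0.55 ± 0.31 without it. Control replicate 1 alone stood low for Myoz2, at 538, against 1094 to 1271 in the other arrays. Ppargc1a, a coactivator of mitochondrial genes, had -0.34 ± 0.21. These 4 genes were named after their values were seen. The list ranged from -0.46 ± 0.15 for Abra, an actin-binding activator of SRF signalling, to Nr4a1. Abra read 1666, 1561 and 1984 in the knockout, against 2536, 2541 and 2078 in the control, without overlap. Its difference was -0.55 ± 0.13 without control replicate 3, and it too was named after its values were seen.

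Genes of the Hdac4 and Dach2 denervation programme had mostly lower values, 9 of 13 measured, with a median of -0.11, or 8 of 13 and -0.15 without control replicate 3. Runx1, induced in denervated fibres, read 108, 73.1 and 72.8 in the knockout, against 107, 103 and 319.8 in the control, so its difference of -0.87 ± 0.47 came mainly from the array labelled control replicate 3 and was -0.34 ± 0.21 without it. Chrng, the fetal acetylcholine receptor subunit, had -0.33 ± 0.19, or -0.16 ± 0.13 without that array, at intensities close to background. Myog, myogenin, which activates the receptor genes and is also a Mef2 target, read 357, 114 and 153, against 167, 141 and 55.9, with overlap. Dach2, the repressor between Hdac4 and myogenin, had -0.05 ± 0.29, or 0.18 ± 0.23 without control replicate 3. Both were named for their place in this pathway after their values were seen.

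**Figure D4:**
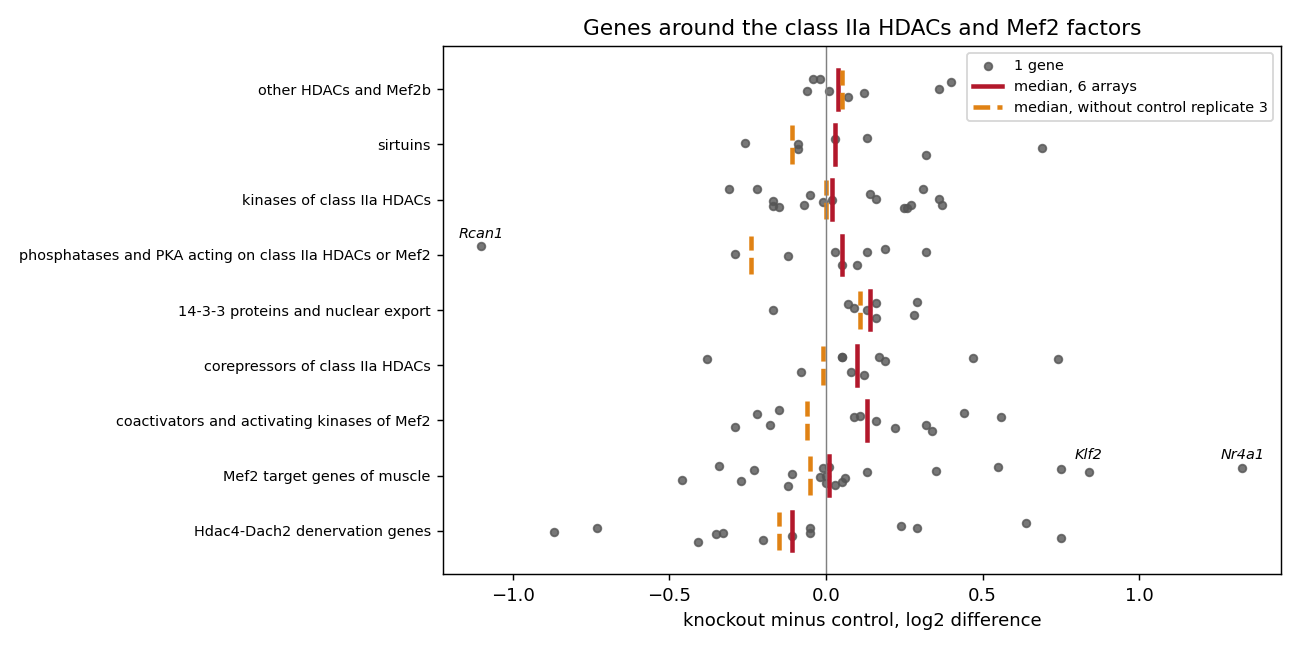
Knockout minus control difference of log2 intensity (horizontal axis) for each gene (points) of the 9 lists around the members (rows). Red lines are list medians over all 6 arrays and dashed orange lines medians without control replicate 3. Medians lie between -0.11 and 0.14 over the 6 arrays, with Nr4a1, Klf2 and Rcan1 among the genes farthest from 0.

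Fibre-type markers also differed between arrays. All 10 fast-fibre markers had higher values in the knockout, with a median difference of 0.10, or 8 of 10 and 0.09 without control replicate 3. All 7 slow-fibre markers had higher values in the knockout, with a median difference of 0.87, or 1.54 without control replicate 3, and their summed intensity was 8421 to 13976 in the knockout and 2057 to 13605 in the control. Control replicate 1 was the low array there, with a mean log2 level of 7.45, against 9.95 and 10.65 in the other control arrays and 9.85 to 10.69 in the knockout. Markers of macrophages, which also express Mef2c, had lower values in the knockout for 6 of 8 genes (median -0.11), or 8 of 8 without control replicate 3 (median -0.35), with a summed intensity of 6501 to 11007 in the knockout and 7666 to 12455 in the control. Of 5 lymphocyte markers 0 were above background in either group. The part of these fibre types and cell types in the members' values, Hdac9 included, was not tested.

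Genes whose pattern over the 6 arrays was most like a member's were listed by Pearson correlation of log2 intensity among the 7787 or 7788 other genes above background that varied by an SD of at least 0.2. The points share array, RNA quality and genotype, so these values are descriptions. For Hdac9 they were Otud1, a deubiquitinase gene, at 0.991, Cnppd1 at 0.988 and Ric8b at 0.973. Otud1 read 2251, 1403 and 1607 in the knockout, against 658, 902 and 727 in the control, with knockout replicate 1 highest as for Hdac9. For Mef2d they were Fam199x at 0.984, Rbm24, an RNA-binding splicing factor of muscle, at 0.956 and Ric8b at 0.955. Rbm24 read 1916, 2153 and 2041 in the knockout, against 1501, 1762 and 1468 in the control. For Hdac4 the nearest gene was Il6ra at 0.987, which like Hdac4 read highest in control replicate 1, at 227, and lowest in control replicate 3, at 103. Hdac5 was nearest to Tacc1 at 0.993, Hdac7 to Aven at 0.996, Mef2a to P2rx7 at 0.998 and Mef2c to Etl4 at 0.995.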

How the data were processed

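Quadriceps RNA of 6 samples was measured on Affymetrix mouse arrays, 1 per sample; it was, per the labels' protocols, amplified and labelled with biotin as cDNA. The deposited values were probe set intensity on a linear scale, between 37.2 and 16069 with array medians of 56.6 to 58.6; the submitters' processing notes name GCOS and RMA, and the sources used here give neither versions nor any later scaling. RMA compresses differences of dim genes.

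The platform annotation paired 34958 of 45101 probe sets with 1 gene and 932 with several, and left 9211 unlisted; 34754 Entrez identifiers matched RefSeq GRCm38.p6 and 0 symbols changed. Samples were grouped by their titles. Log2 intensities, with no pseudocount, were fitted with limma 3.58.1 in R 4.3.3 (group only, eBayes with trend, two-sided, Benjamini-Hochberg over all 45101 probe sets for the members and, for the 9 gene lists, over all 18194 genes, each by its brightest probe set). The fit was tested on simulated data. An exact permutation test of 3 against 3 arrays cannot give a p under 0.1, and the number of arrays limits the precision.

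The members and lists were chosen with earlier results of these data known. Besides the members, the rule named the 2 genes of smallest unadjusted p per list among those above background, and the 3 genes of highest correlation per member; others are said to be named after their values were seen. Alternatives were the replicate number as a block, normalization, array weights, variance model, pseudocount, probe set averaging, a background filter, the pattern of sex-chromosome transcripts (both groups held male and female patterns) and leaving out arrays.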

Additional observations from a re-analysis of the deposited data

How the results depend on the processing

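Leaving out each array in turn gave 0 genes and 0 probe sets past the threshold, and 276 (without knockout replicate 2) to 1090 genes (without control replicate 3) at an unadjusted p under 0.05. The log2 difference then ranged from 1.08 to 1.43 for Hdac9, 0.35 to 0.46 for Mef2d, 0.10 to 0.22 for Mef2c, 0.10 to 0.23 for Hdac5, -0.81 to -0.11 for Hdac4, -0.26 to 0.02 for Hdac7 and -0.18 to 0.07 for Mef2a. Hdac7 was above 0 without control replicate 2 and Mef2a without control replicate 1 (0.07) or knockout replicate 2 (0.04), and Mef2a was at 0.00 without control replicate 2. The members without overlap numbered 2 to 5, the highest count being without control replicate 3 and also without both arrays of high Gapdh ratio (5), and 4 without control replicate 2. Over all genes the share without overlap was 9.01% with 6 arrays and 24.5% without control replicate 3. It was not counted for the other settings. Fewer arrays make separate groups more common, so these counts are no result about the members. List medians ranged from 0.02 to 0.05 for the other deacetylases, -0.07 to 0.13 for the kinases, -0.24 to 0.18 for the phosphatases and protein kinase A, 0.10 to 0.15 for 14-3-3 proteins and export, -0.11 to 0.22 for the sirtuins, -0.01 to 0.19 for the corepressors, -0.06 to 0.25 for the coactivators, -0.05 to 0.07 for the Mef2 targets, and -0.19 to -0.05 for the denervation genes. With array weights 1854 genes had an unadjusted p under 0.05 and 4 probe sets passed adjustment, 0 of them members'. Without a variance trend that gene count was 786, and without both arrays of high Gapdh ratio 1362. Averaging all probe sets of a gene gave 0.68 for Hdac9, where a probe set below background then enters, and 0.12 for Mef2d, whose probe sets disagreed. It gave 0.20 for Mef2a and 0.36 for Mef2c, where probe sets with a low value in control replicate 3 alone then enter. The median of the other deacetylases was 0.01 after quantile normalization and 0.07 with array weights, above background only, or without both arrays of high Gapdh ratio. Above background only, the denervation median was -0.19, and without both those arrays the 14-3-3 median was 0.04; the cause was not tested. With the replicate number as a block 377 genes had an unadjusted p under 0.05 and 0 passed adjustment. Deviations of same-numbered arrays from their group means correlated at 0.19, -0.15 and -0.11. The highest value of any knockout and control pair, 0.22, joined knockout replicate 2 and control replicate 3, the arrays of high Gapdh ratio. RNA quality thus enters this check, which cannot show whether the numbers pair the samples. Sex-chromosome patterns were male for replicates 1 and 3 and female for replicate 2 in both groups. The block, and the sex-chromosome pattern as a covariate, changed no call. Dim signal limits Hdac9 in the control arrays, the second probe sets of Hdac7 and Hdac9, and Mef2a probe sets 1442623_at and 1425426_a_at. These dim Mef2a probe sets also enter the average for Mef2a.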
